A study of Mus musculus with 9 samples.

Results

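Ip6k2 and 9 related genes that code for inositol phosphate kinases were followed in 9 libraries of cells picked as retinal ganglion cells, which carry the output of the retina along the optic nerve. The genes were taken by symbol, as Ip6k1, Ip6k2, Ip6k3, Ppip5k1, Ppip5k2, Ippk, Ipmk, Itpk1, Itpka and Itpkb, and all 10 were found among the 50764 genes of the count table. The libraries came from wild-type adult male mice 14 days after optic nerve crush. An adeno-associated virus of serotype AAV2 (1.5 µL into the vitreous chamber) had delivered GFP, Olig2 or Olig3, with 3 libraries for each of these groups, and the labels count 14 days from the injection too. The groups thus shared the crush, the wild-type genotype label and a virus, and differed in the delivered gene. Both factors belong to the basic helix-loop-helix class. Each library held 10 to 20 cells (the labels give differing limits within this range) that were enriched on beads against CD90.2 (Thy1) and picked by hand as GFP-positive. Neither the promoter that drives the delivered gene nor the number of animals behind a group is given in the sources used here. The spread between libraries, on which all p-values rest, may therefore be technical.

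Inositol phosphates are built by stepwise phosphorylation of inositol rings, starting from the second messenger IP3 that phospholipase C releases from the membrane. Itpka and Itpkb code for IP3 3-kinases, Ipmk for a multikinase that adds further phosphates, Itpk1 for a kinase of another route to the same intermediates, and Ippk for the enzyme that completes InsP6. Ip6k1, Ip6k2 and Ip6k3 code for the InsP6 kinases, which form a diphosphate group on InsP6 to give InsP7. Ppip5k1 and Ppip5k2 code for the kinases that act on InsP7 to give InsP8. These diphosphates act in phosphate balance, vesicle traffic and cell energy state. The Ip6k2 enzyme is best known for promoting cell death, with p53 among its partners and Hsp90 as a protein that holds its activity down.

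Ip6k2 was singled out because it had the smallest p of 15609 tested genes in the comparison of Olig3 with GFP, so its difference there is described and not put forward as a test. The other 9 genes were taken for their place in the pathway. The 2 sequences just upstream of Ip6k2 starts are shown because the viruses carried factors of the class that binds the E-box, the 6-letter motif CANNTG, which reads the same on both strands. Ip6k2 lies at chr9:108783796-108806337 on the plus strand of mm10, 735014 bases beyond the end of Ip6k1 (chr9:108002501-108048782, plus strand), and GENCODE M21 gives it 12 transcripts with 8 starts. The sequences come from the RefSeq promoter windows of GRCm38.p6, cut before the first base of any annotated Ip6k2 exon, and capitals mark CANNTG.
Ip6k2 upstream of the first start, chr9:108783562-108783795, plus strand: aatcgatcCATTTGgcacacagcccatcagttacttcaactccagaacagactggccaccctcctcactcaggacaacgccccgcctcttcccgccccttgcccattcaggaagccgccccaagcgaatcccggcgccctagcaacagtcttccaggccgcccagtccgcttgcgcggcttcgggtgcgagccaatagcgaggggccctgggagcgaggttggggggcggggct
Ip6k2 upstream of the internal start, chr9:108795744-108795993, plus strand, within an intron of the transcripts that begin at the first start: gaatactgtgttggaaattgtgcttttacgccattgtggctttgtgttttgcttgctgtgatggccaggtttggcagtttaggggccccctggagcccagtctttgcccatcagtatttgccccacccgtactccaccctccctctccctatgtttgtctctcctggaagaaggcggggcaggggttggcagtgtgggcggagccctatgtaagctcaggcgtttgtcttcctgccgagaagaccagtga
The first sequence held 1 such motif, CATTTG, and the second held none. Over the 12 promoter windows of the 10 genes (300 bases each, both starts of Ip6k2 and of Ippk included) 5 held CANNTG, against 72.3% of 32544 windows of all genes. CATATG was in none of the 12 windows and in 3.87% of all windows. CAGCTG was in the window of Ip6k3 and in 1 of Ippk, and in 16.4% of all windows. The counts are per gene, so they do not show which start of Ip6k2 was used.

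Total counts per library ran from 5355691 to 6979851, so that a count of 0 allowed up to 3 counts or 0.430 to 0.560 CPM (the count as a share of the total of its library). Reads were amplified without molecular identifiers, and such limits cover counting error only. Olig2 had 0 counts in all GFP libraries, 114, 97 and 21 in the Olig2 libraries, and 6, 4 and 0 in the Olig3 libraries. Olig3 had 172, 113 and 597 counts in the Olig3 libraries, 13, 0 and 40 in the GFP libraries, and 0, 5 and 7 in the Olig2 libraries. The label of the cells was checked against markers: 14 ganglion cell markers held 0.0976 to 0.219% of counts in the GFP libraries, 0.0255 to 0.0475% with Olig2 and 0.0203 to 0.0362% with Olig3, while 15 rod markers held 5.20 to 7.96%, 8.64 to 15.5% and 6.74 to 17.1%. Counts of the rod markers thus exceeded those of the ganglion cell markers in every library. Olig3 libraries 1 and 3 had 16188 and 14434 detected genes, against 18184 to 21338 in the other 7, and Malat1 held 6.15 to 11.7% of counts in Olig2 libraries 2 and 3 and Olig3 library 2, against 2.65 to 4.14% in the rest. In such pooled picks, fewer cells of a type and less RNA per cell cannot be told apart.

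Ip6k2 RNA was higher in every Olig3 library than in any other library. Its level was 93.5, 89.9 and 93.7 CPM in the GFP libraries after TMM scaling, a per-library scaling that assumes most genes to be unchanged. The Olig2 libraries had 111, 119 and 130 CPM, and the Olig3 libraries 344, 311 and 232 CPM. The GFP libraries were nearly level, the Olig2 libraries lay a little above them, and the Olig3 libraries stood apart from both groups. Olig3 and GFP libraries did not overlap in 17.2% of all tested genes. As group means this was 92.4 ± 2.17, 120 ± 9.34 and 296 ± 57.4 CPM (SD, n = 3 each), 3.20-fold higher with Olig3 than with GFP. These levels rest on 500 to 2333 counts per library. The edgeR quasi-likelihood log2 change for Olig3 over GFP was 1.68 (SE 0.213, 95% interval 1.21 to 2.15). The value that chose the gene was its edgeR p of 5.13e-06, with a Benjamini-Hochberg adjusted p = 0.0319 that it shares with 2 other genes of larger p; 0.205% of all tested genes had an adjusted p below 0.05 there. Multiplied by the number of genes tested, the p of Ip6k2 alone is 0.0800.

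**Figure D1:**
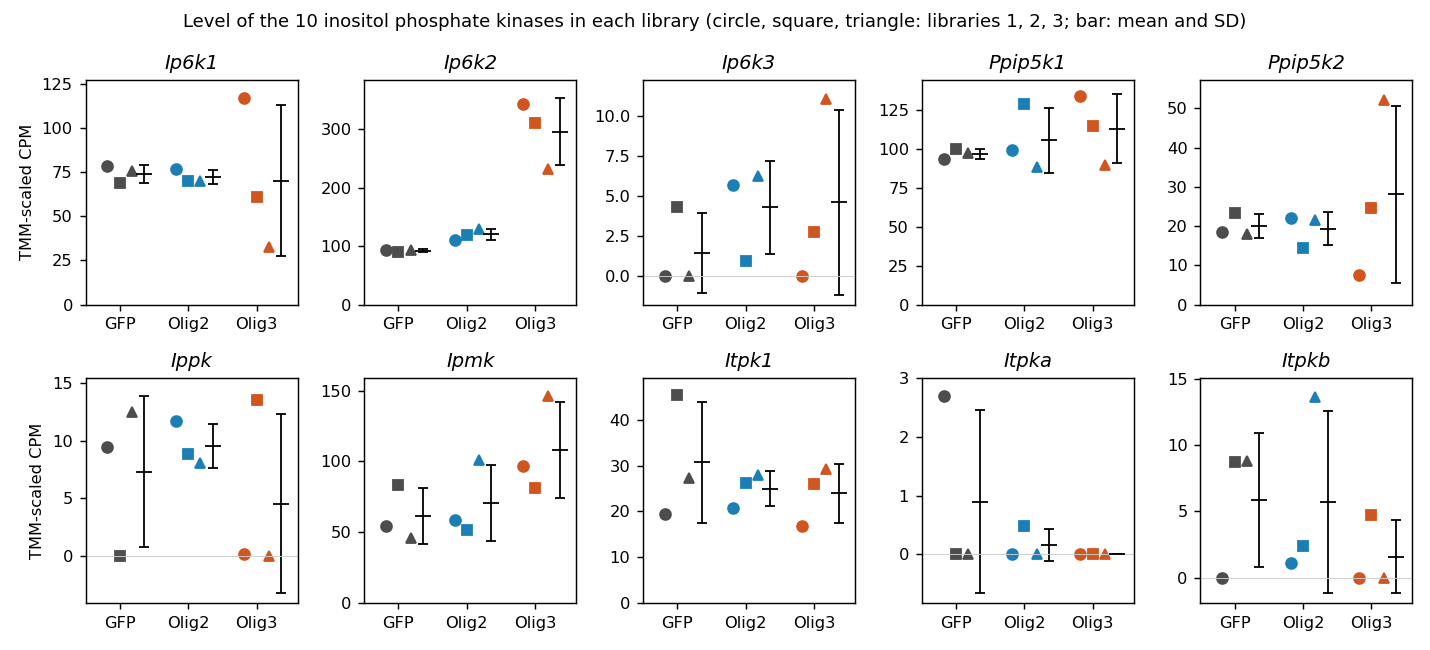
TMM-scaled CPM (vertical axes, each from 0 or below) of the 10 genes in the 9 libraries, by group, with the mean and SD beside the points. The Ip6k2 points of the Olig3 group sit between 232 and 344 CPM, above all other libraries, while the points of Ip6k1 and Ppip5k1 overlap between the groups and Ip6k3, Ippk, Itpka and Itpkb have libraries at 0.

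The size of the Ip6k2 difference varied little with the settings, whereas its place against the threshold did. Over the 19 alternative settings the log2 change stayed between 1.56 and 1.83, and the adjusted p was below 0.05 in 8 of them. Leaving out each library in turn kept the log2 change between 1.56 and 1.83 and the edgeR adjusted p below 0.05 in 2 of 9 fits, those without Olig3 library 2 (adjusted p = 0.0128) and without Olig3 library 3 (adjusted p = 0.0344). The other 7 fits gave adjusted p from 0.0573 to 0.144. With only Olig3 library 2 kept in its group, the change was 1.77 (edgeR adjusted p = 0.0684), and without the 3 Malat1-rich libraries it was 1.63 (edgeR adjusted p = 0.0710). Where 1 library was left in a group, it was assumed to be as variable as the other groups.

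**Figure D2:**
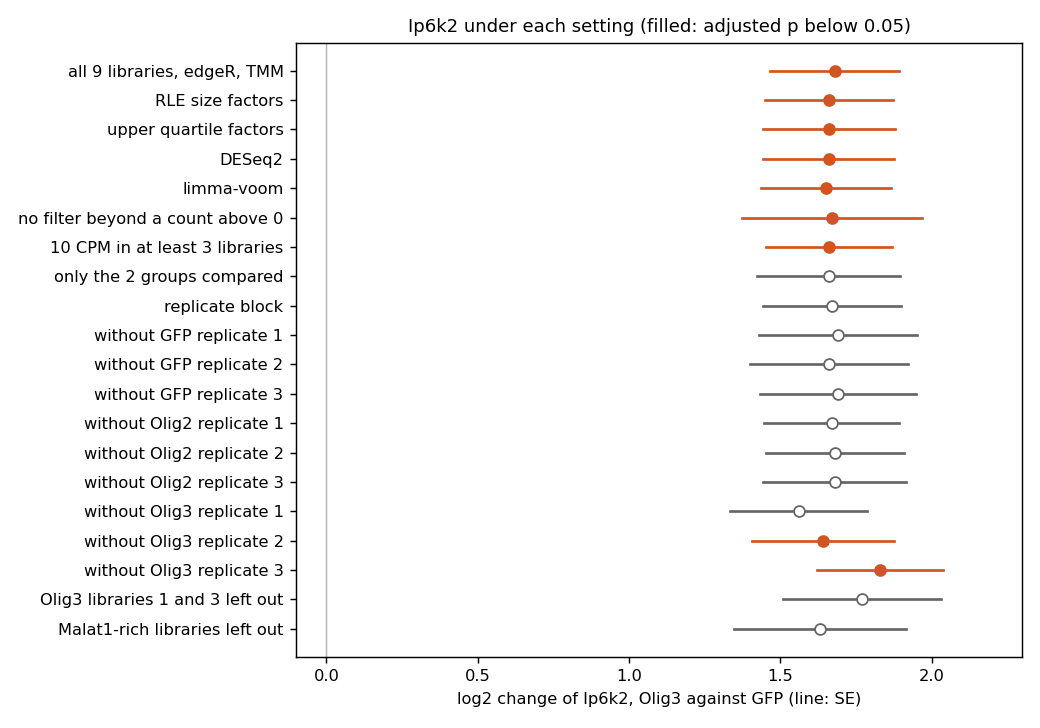
The log2 change of Ip6k2 in Olig3 over GFP libraries (horizontal axis, with its SE) under each of the 20 settings, filled where the adjusted p is below 0.05. All points lie between 1.56 and 1.83, and the filled points are 9 of 20.

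With Olig2 the Ip6k2 difference was small and turned on the scaling. The 3 Olig2 libraries lay above the 3 GFP libraries after TMM scaling, with a log2 change of 0.38 (SE 0.209, 95% interval -0.08 to 0.84, edgeR adjusted p = 1.00), and in 16.8% of tested genes these groups did not overlap. In CPM of the raw library total the Olig2 libraries had 121, 92.1 and 107 and the GFP libraries 107, 101 and 111, and these overlap. Olig2 libraries 2 and 3, richest in Malat1 of that group, had the TMM factors of 0.776 and 0.826 that raise their scaled values, and only Olig3 library 2 had a lower one, 0.749. In raw CPM the Olig3 libraries still stood highest, at 362, 232 and 268. Olig3 over Olig2, which uses the same Olig3 libraries that chose the gene, gave a log2 change of 1.30 (SE 0.211, 95% interval 0.84 to 1.76, edgeR adjusted p = 0.0834). The 6 libraries did not overlap, as in 13.1% of tested genes, and the direct difference between the factors did not pass the threshold.

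Ratios to other kinases of the same library need no scaling between libraries, and they too set the Olig3 libraries apart. For each count of Ip6k1 there were 1.19, 1.31 and 1.24 counts of Ip6k2 in the GFP libraries, 1.45, 1.69 and 1.86 with Olig2, and 2.95, 5.08 and 7.10 with Olig3. The 3 groups did not overlap in this ratio, and the Olig3 libraries were spread most widely. For each count of Ppip5k1, the other abundant member, there were 0.954 ± 0.0523, 1.17 ± 0.278 and 2.62 ± 0.0723 counts of Ip6k2 (SD, n = 3). Here the Olig3 libraries were close together, and the GFP and Olig2 libraries overlapped. Ip6k2 made up 21.2 to 25.3% of the counts of the 10 genes in the GFP libraries, 27.3 to 28.1% with Olig2 and 39.1 to 48.6% with Olig3. These ratios contain the difference that chose Ip6k2 and are given as description.

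**Figure D3:**
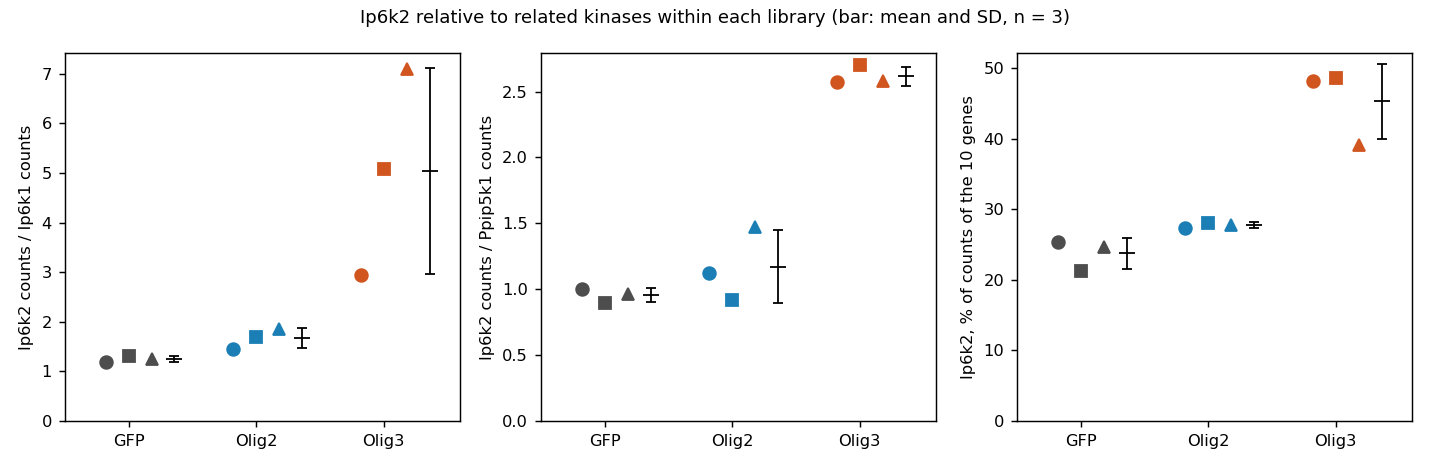
Counts of Ip6k2 per count of Ip6k1 and per count of Ppip5k1, and Ip6k2 as a percent of the counts of the 10 genes (vertical axes from 0), in each library with the group mean and SD. The Olig3 libraries are above all others in each panel, with 2.95 to 7.10 Ip6k2 counts per Ip6k1 count.

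Ip6k1, the other widely expressed InsP6 kinase, showed no difference past the test. It had 78.7, 68.7 and 75.6 CPM in the GFP libraries, 76.8, 70.3 and 70.0 with Olig2, and 117, 61.3 and 32.7 with Olig3. The Olig2 libraries lay within the GFP range, and the Olig3 libraries ran from the highest to the lowest value of the series. The log2 change was -0.04 with Olig2 (SE 0.373, edgeR adjusted p = 1.00) and -0.08 with Olig3 (SE 0.373, 95% interval -0.90 to 0.73, edgeR adjusted p = 0.953). That of Olig3 lay at 0.27 without Olig3 library 3 and at -0.66 without Olig3 library 1. Gm20662, a gene model on the same strand that spans most of Ip6k1, had 0 counts in every library, and reads that fit both models may be missing from the Ip6k1 counts. The small nucleolar RNA gene Gm23034, opposite Ip6k2, had 0 to 9 counts.

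Ip6k3 (chr17:27143965-27167795, minus strand), known from muscle and cerebellum, was near the limit of detection. It had 0, 34 and 0 counts in the GFP libraries, 40, 4 and 35 with Olig2, and 0, 11 and 76 with Olig3. Libraries with 0 counts occurred beside libraries with 34 and 76 counts in the GFP and Olig3 groups. The edgeR log2 change of 1.67 with Olig3 had an SE of 2.01, and that with Olig2 was 1.57 with an SE of 2.01 (adjusted p = 0.786 and 1.00). Without GFP library 2, which leaves the GFP group at 0, they were 7.82 and 7.72 (edgeR adjusted p = 0.462 and 1.00), values that depend on the prior count and are no bounds. Without Olig3 library 3 the change with Olig3 was -0.10.

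The kinases that act on InsP7 were measured at higher counts. Ppip5k1 (chr2:121310561-121355396, minus strand) had 93.4, 100 and 97.2 CPM in the GFP libraries, 99.6, 129 and 88.6 with Olig2, and 134, 115 and 89.9 with Olig3. Its groups overlapped, with a log2 change of 0.13 for Olig2 and 0.22 for Olig3 (SE 0.235 each, 95% intervals -0.39 to 0.64 and -0.29 to 0.74, edgeR adjusted p = 1.00 and 0.747). Ppip5k2 (chr1:97706048-97770411, minus strand) had 18.6, 23.4 and 17.9 CPM with GFP, 22.0, 14.5 and 21.5 with Olig2, and 7.52, 24.5 and 52.2 with Olig3, so that the Olig3 libraries lay on both sides of the rest. Its log2 change with Olig3 was 0.49 (SE 0.607, edgeR adjusted p = 0.790) and -0.32 without Olig3 library 3. Ppip5k1 overlaps 272 bases of Map1a and Ppip5k2 240 bases of Gin1, both on the opposite strand, and without a stated strand setting reads there cannot be told apart.

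Among the kinases that build InsP6, Ipmk (chr10:71347763-71433327, plus strand) came nearest to a difference. It had 54.3, 83.4 and 46.1 CPM in the GFP libraries, 58.8, 51.3 and 101 with Olig2, and 96.6, 80.8 and 146 with Olig3. Of the Olig3 libraries, 2 lay above all GFP libraries and the other lay below GFP library 2. The log2 change with Olig3 was 0.82 (SE 0.346, 95% interval 0.06 to 1.57, unadjusted p = 0.0367 and adjusted p = 0.373 by edgeR), and over the alternatives it ran from 0.41 to 1.11 with adjusted p from 0.163 to 1.00. With Olig2 it was 0.20 (SE 0.345, edgeR adjusted p = 1.00). Itpk1 (chr12:102568582-102704930, minus strand) had 19.5 to 45.4 CPM with GFP, 20.7 to 28.0 with Olig2 and 16.8 to 29.2 with Olig3, with log2 changes of -0.30 and -0.36 (SE 0.440 each, edgeR adjusted p = 1.00 and 0.790). Ippk (chr13:49421249-49464573, plus strand) had 63, 0 and 93 counts with GFP, 82, 37 and 45 with Olig2, and 1, 54 and 0 with Olig3. It was thus at or near 0 in Olig3 libraries 1 and 3, those with the fewest detected genes, and in GFP library 2. Its log2 change with Olig3 was -0.70 (SE 1.79, edgeR adjusted p = 0.911) and 0.90 with Olig3 libraries 1 and 3 left out. It was -6.30 without Olig3 library 2 (edgeR adjusted p = 0.142) and -6.32 without the Malat1-rich libraries (edgeR adjusted p = 0.363), fits in which the Olig3 group held 1 count in all.

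The IP3 3-kinases had few counts too. Itpkb (chr1:180330485-180424802, plus strand) had 0, 69 and 66 counts in the GFP libraries, 8, 10 and 76 with Olig2, and 0, 19 and 0 with Olig3. Its 0 counts in the Olig3 group fell in libraries 1 and 3, and the log2 change with Olig3 was -1.92 (SE 2.03, edgeR adjusted p = 0.747). It was -0.29 with Olig3 libraries 1 and 3 left out. Without Olig3 library 2, which leaves that group at 0, it was -8.27 (edgeR adjusted p = 0.149), a value that depends on the prior count and is no bound. Itpka (chr2:119742337-119751263, plus strand), an actin-binding isoform of neurons, had 18 counts in GFP library 1, 2 in Olig2 library 2 and 0 in the other 7. It was the 1 gene of the 10 that did not pass the filter on low counts and was not tested. Other gene models also overlap Ippk, Itpk1 and Itpkb. Cenpp, opposite Ippk over 551 bases, had 0 to 100 counts. At Itpkb, Gm37033 on the same strand had 0 to 22 counts and Gm5069 on the opposite strand 0 to 41. At Itpk1, Gm37019 and Gm28373 on the same strand had 0 to 16 and 0 to 21. Reads that fit both models may be missing from the counts of these kinases.

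**Figure D4:**
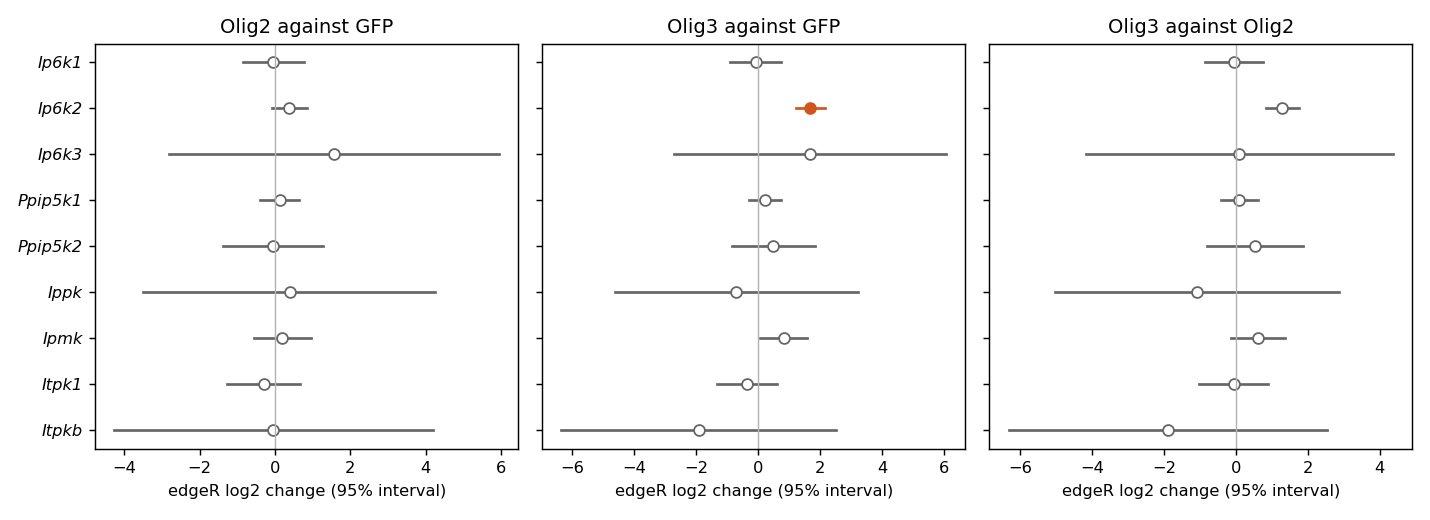
edgeR log2 change (horizontal axis) with its 95% interval for the 9 tested genes in the 3 comparisons, filled where the adjusted p is below 0.05. Ip6k2 in Olig3 over GFP, at 1.68, is the 1 filled point, and the intervals of Ip6k3, Ippk and Itpkb span more than those of the abundant genes.

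In Olig3 over GFP, 1 of the 9 tested genes, Ip6k2 itself, was called by edgeR at an adjusted p below 0.05, against 0.205% of all 15609 tested genes. Since Ip6k2 was chosen for this, nothing is read from the count. Ip6k2 and Ipmk had an unadjusted p below 0.05, against 12.1% of all genes, and for Ip6k2 alone did the 6 libraries not overlap, against 17.2%. The median log2 change of the 9 was 0.22 and that of all tested genes -0.06. The chosen Ip6k2 is part of these counts and of this median, so nothing is read from them either. In Olig2 over GFP, 0 of 9 were called and 0 had an unadjusted p below 0.05 by edgeR, against 0.0513% and 4.68% of all genes, and DESeq2 and limma-voom also called 0. There the median was 0.13 against 0.00 for all genes, and Ip6k2 alone did not overlap, against 16.8%. In Olig3 over Olig2, 0 of 9 were called by edgeR, against 0.0384%, and 1, Ip6k2, had an unadjusted p below 0.05, against 5.12%. Ip6k2 alone did not overlap there, against 13.1%. DESeq2 called Ip6k2 there (adjusted p = 1.71e-06), among 82 genes in all, and limma-voom called 0 of the 9. The comparisons with GFP share the GFP libraries, and those with Olig3 share the Olig3 libraries. The figures for the 9 genes are therefore tied to the choice of Ip6k2 in each comparison.

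Levels were set beside each other per kilobase of exon, taking the union of exons of each gene. Ip6k2 stood first in every library, at 22.1 to 23.0 CPM per kilobase with GFP, 27.4 to 31.9 with Olig2 and 57.1 to 84.6 with Olig3. In the GFP group Ip6k1 followed at 11.5 ± 0.793, then Itpk1 at 9.27 ± 4.01, Ipmk at 8.64 ± 2.77 and Ppip5k1 at 7.76 ± 0.272 (SD, n = 3). These 4 neighbours did not differ beyond their spread, except that Ip6k1 lay above Ppip5k1 in each GFP library. Ippk (1.51 ± 1.34) and Ppip5k2 (1.39 ± 0.206) came next, and Ip6k3, Itpkb and Itpka lay between 0.494 and 0.614 with SDs of 1.06, 0.485 and 0.855. In the Olig3 group Ipmk (15.2 ± 4.80) stood after Ip6k2, with Ip6k1 at 10.8 ± 6.58, Ppip5k1 at 9.06 ± 1.77 and Itpk1 at 7.23 ± 1.94 within each other's spread. By the length of the longest transcript Ip6k2 was again first in each group, and Ppip5k1 was second. Together the other 9 genes held 344 ± 30.9, 279 ± 44.5 and 352 ± 92.4 CPM of the raw total in the 3 groups, in the order GFP, Olig2, Olig3. After TMM scaling these sums were 299 ± 30.6, 312 ± 21.7 and 354 ± 22.3 CPM (SD, n = 3), so that the Olig2 mean lay below that of GFP in raw CPM and above it after scaling.

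Other genes of the pathway were taken from 6 fixed lists of 55 genes, of which 50 were tested. None passed the adjusted threshold in any of the 3 comparisons by edgeR, and 7, 2 and 4 of them had an unadjusted p below 0.05 in Olig3 over GFP, Olig2 over GFP and Olig3 over Olig2, against 12.1, 4.68 and 5.12% of all genes. With Olig3, 5 of the 50 lay wholly above the GFP libraries and 5 wholly below, against 17.2% of all tested genes without overlap. With Olig2 these were 2 and 5, against 16.8%. In Olig3 over Olig2, 3 lay wholly above and 6 wholly below, against 13.1%. In Olig3 over GFP, DESeq2 called Plch2 and Hsp90ab1, among 502 genes that it called in all. The edgeR fit with no filter called Plch1 and Plch2, among 556. That without Olig3 library 2 called Plch1 and Tti2, among 505. From the lists limma-voom called 0, and 78 genes in all. In Olig3 over Olig2 the fit with no filter called Plch1, among 140. The smallest p of the lists belonged to Plch2, which codes for a phospholipase C of the eta class. It had 26.9, 25.6 and 26.4 CPM with GFP, 35.0, 65.6 and 44.1 with Olig2, and 48.8, 90.3 and 88.8 with Olig3, with both factor groups above the GFP group. Its log2 change was 1.53 with Olig3 (SE 0.342, edgeR adjusted p = 0.111) and 0.87 with Olig2 (SE 0.338, edgeR adjusted p = 0.900). Its relative Plch1 had 34.7 to 43.8 CPM with GFP, 31.5 to 77.2 with Olig2 and 37.8 to 208 with Olig3, where the groups overlap (edgeR log2 change 1.58 with Olig3, SE 0.531, adjusted p = 0.282). Plcg1 had 5.56 to 8.11 CPM with Olig2, below the 10.2 to 15.1 of the GFP group (edgeR adjusted p = 1.00). Over the 10 tested of 12 phospholipase C genes the median log2 change was 0.36 with Olig3 and 0.17 with Olig2. The IP3 receptors Itpr1 and Itpr2, calcium channels of the endoplasmic reticulum, had log2 changes of 0.55 and -0.04 with Olig3 and 0.13 and 0.07 with Olig2 (edgeR adjusted p = 0.747, 0.994, 1.00 and 1.00).

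The enzymes that remove phosphates also did not pass the test by edgeR. Nudt3, Nudt4, Nudt10 and Nudt11 code for the phosphatases that take a phosphate off the diphosphate group of InsP7. They had edgeR log2 changes of -0.12, -0.32, -1.34 and -2.93 with Olig3 (SE 0.362, 0.698, 1.77 and 1.87, adjusted p = 0.572 to 0.924). With Olig2 the changes were -0.14, -0.64, 1.22 and -0.20. Nudt10 and Nudt11 were at 0 in Olig3 libraries 1 and 3. In the GFP libraries Nudt10 had 39, 8 and 4 counts and Nudt11 133, 31 and 1, so their GFP level rests mostly on library 1. Of the 19 other inositol phosphatases, all tested, 6 had a log2 change above 0 and 13 below 0 with Olig3, with a median of -0.16, and 9 and 10 with Olig2, with a median of -0.03. Inpp5a, an IP3 5-phosphatase, had 10.0 to 15.7 CPM with Olig2, below the GFP group at 16.3 to 40.0 (edgeR log2 change -1.18, SE 0.519, adjusted p = 1.00), and 15.5 to 35.5 with Olig3. Inpp1, which acts on inositol bisphosphates, had 39.2 to 82.2 CPM with GFP and 37.2 to 46.0 with Olig3 (edgeR adjusted p = 0.426), and Inpp4a 7.62 to 16.7 with GFP and 13.0 to 31.5 with Olig2 (edgeR adjusted p = 1.00). Impa2, an inositol monophosphatase, had 2, 53 and 62 counts in the GFP libraries, 0, 9 and 7 with Olig2, and 0, 1 and 0 with Olig3. GFP library 1 was thus near 0 and lay within the Olig2 range (edgeR adjusted p = 0.326 for Olig3). Isyna1, which makes inositol from glucose phosphate, had 9.10 to 13.6 CPM with GFP, 13.1 to 35.5 with Olig2 and 7.67 to 39.3 with Olig3 (edgeR adjusted p = 1.00 and 0.611). Xpr1, a phosphate exporter that senses these diphosphates, had 42.4 to 60.0, 37.1 to 41.0 and 41.5 to 120 CPM, and its edgeR adjusted p were 1.00 and 0.565.

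Genes for known partners of the Ip6k2 enzyme did not pass either in the edgeR fit of all 9 libraries. Without Olig3 library 2 Tti2 was called, as given above. Hsp90ab1 and Hsp90aa1 code for the Hsp90 isoforms, and with Olig3 they lay on opposite sides of the GFP values. Hsp90ab1 had 811 ± 135 CPM with GFP, 676 ± 122 with Olig2 and 500 ± 103 with Olig3 (SD, n = 3, edgeR log2 change -0.70 with Olig3, SE 0.237, adjusted p = 0.287), with no overlap between Olig3 and GFP. Hsp90aa1 had 1681.4 ± 268, 2334.6 ± 360 and 2353.9 ± 289 CPM (edgeR log2 change 0.49 with Olig3, SE 0.236, adjusted p = 0.445), again with no overlap between Olig3 and GFP. Such a lack of overlap was found for 17.2% of all tested genes. Tti2, which codes for a subunit of the TTT complex that stabilises large kinases, had 44.7 ± 9.43, 55.9 ± 4.26 and 96.1 ± 46.9 CPM (edgeR adjusted p = 0.268 with Olig3). Olig3 library 2, at 45.5 CPM, lay within the GFP range. Epb41l1, a membrane skeleton protein of neurons, had 16.3 to 38.6 CPM with GFP and 9.51 to 15.5 with Olig2 (edgeR adjusted p = 1.00). Trp53, the gene for p53, had an edgeR log2 change of -0.81 with Olig3 and -0.08 with Olig2 (SE 0.718 and 0.711, adjusted p = 0.699 and 1.00).

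Markers of other cells differed between the groups. The 9 cone markers, all with counts in every group, held 0.101 to 0.202% of counts with GFP, 0.168 to 0.331% with Olig2 and 0.500 to 0.870% with Olig3, and the Olig3 libraries did not overlap with the rest, as for Ip6k2. Within the Olig3 group the order turned on the scaling. Library 3 had the most cone RNA (0.870%) and, after TMM scaling, the least Ip6k2 (232 CPM). In raw CPM library 2 had the least Ip6k2 (232, against 362 and 268 in libraries 1 and 3) and also the least cone RNA (0.500%). The 10 bipolar markers held 0.0805 to 0.0893%, 0.0990 to 0.177% and 0.0974 to 0.164%, and the 7 Müller glia markers 0.205 to 0.416%, 0.181 to 0.227% and 0.0629 to 0.234%. All 10 and all 7 of these had counts in each group. The 8 amacrine and the 8 microglia markers overlapped between the groups. The 10 lens markers held 0.00675 to 0.268% with GFP, 0.000203 to 0.000399% with Olig2 and 0.00164 to 0.0210% with Olig3. Cryga was at 0 in every group, and Crybb1 and Lim2 were at 0 with Olig2 only. The lens markers thus set the Olig2 libraries apart from the GFP libraries, and their part in the Olig2 over GFP values was not tested. Across the groups the rod share and TMM-scaled Ip6k2 ran in different orders. Olig2 library 3, with 15.5% rod RNA, had 130 CPM of Ip6k2, and Olig3 library 1, with 9.92%, had 344 CPM. Within the Olig2 group they ran in the same order, with 8.64, 12.6 and 15.5% rod RNA and 111, 119 and 130 CPM. In raw CPM these libraries had 121, 92.1 and 107, in another order. Within the GFP and the Olig3 groups the orders differed under both scalings. Olig3 library 2 had 20933 detected genes and the other Olig3 libraries 16188 and 14434. Its Ip6k2 lay between theirs after TMM scaling (311, against 344 and 232 CPM). In raw CPM it lay below both (232, against 362 and 268). The part of cell makeup in the Ip6k2 difference was not tested.

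**Figure D5:**
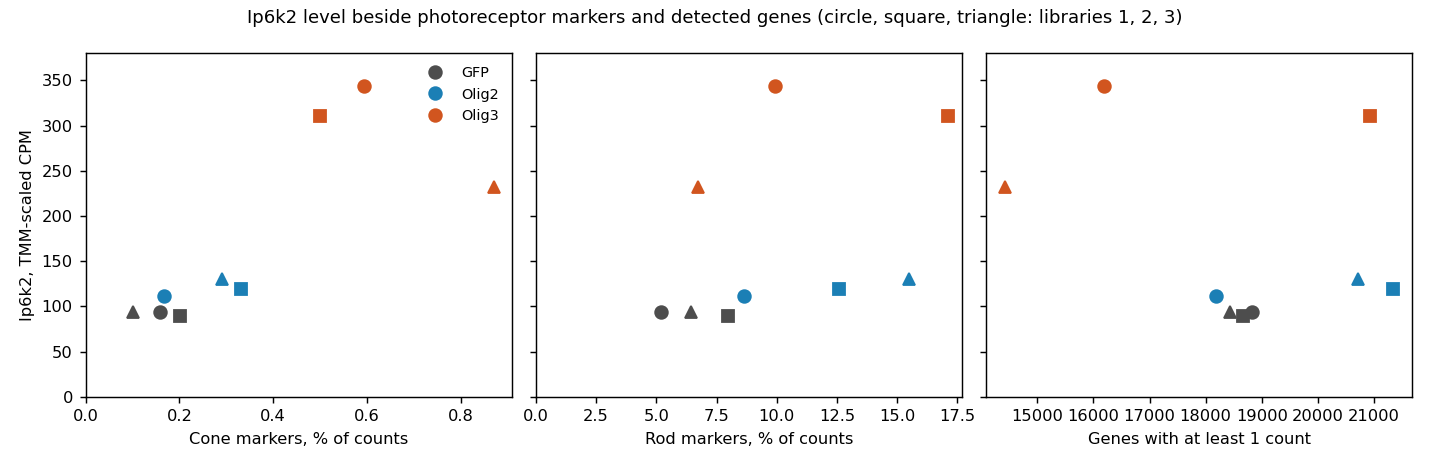
TMM-scaled CPM of Ip6k2 (vertical axis from 0) against the percent of counts held by 9 cone markers, by 15 rod markers, and against the number of detected genes, 1 point per library. The Olig3 libraries are high on the Ip6k2 and the cone axes, at 0.500 to 0.870% cone RNA, and lie within or beside the others on the rod axis.

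The genes whose levels ran most like Ip6k2 over the 9 libraries, of 12759 tested genes with a regular symbol, were Plk5, Plpp2, Myrip, Hnrnpu and Plekhf2. Their log2 CPM had Pearson r of 0.969, 0.962, 0.954, 0.949 and 0.942 with that of Ip6k2, which are the highest of many and are given as description only. For deviations from the group means, r was lower, at 0.478, 0.508, 0.602, 0.432 and 0.319. Plk5, a member of the polo-like kinase family, had 73.9 to 86.1 CPM with GFP, 83.2 to 108 with Olig2 and 156 to 175 with Olig3. Plpp2, a lipid phosphate phosphatase, had 17.4 to 28.6, 29.6 to 32.5 and 64.5 to 110 CPM. Myrip, which links Rab27a to myosin, had 8.30 to 10.2, 10.7 to 14.0 and 17.5 to 21.5 CPM. The nuclear RNA-binding protein gene Hnrnpu had 493 to 535, 494 to 560 and 660 to 712 CPM, and Plekhf2, for an endosomal protein, had 63.8 to 79.7, 81.5 to 87.2 and 118 to 157 CPM. As with Ip6k2, the Olig3 libraries were above all others for each of the 5, which the choice by r favours. None passed by edgeR in Olig3 over GFP (adjusted p = 0.0799, 0.0509, 0.464, 0.394 and 0.129). DESeq2 called Plk5, Plpp2 and Plekhf2 there (adjusted p = 0.000556, 8.25e-05 and 0.0102), among 502 genes in all. Of the 5, limma-voom called Plpp2 (adjusted p = 0.0345), among 78 genes in all. The choice by r favours such calls too, and they are description only. Among the 10 kinases, Ipmk (r = 0.615) and Ppip5k1 (0.472) ran most like Ip6k2 and the other 6 tested had r from -0.378 to 0.0719, over libraries that differ in depth and makeup.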

How the data were processed

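The values are whole-number read counts per gene in 1 deposited table of the whole series, not normalized. FastQC, HISAT2 and HTSeq on mm10 are named per the submitters' processing notes. The sources used here give no versions, filters or strand setting. Columns were assigned by name. Genes were tested with edgeR 4.0.16 (R 4.3.3) with its quasi-likelihood F test, TMM scaling and filterByExpr (15609 genes), 1 fit of group means over 9 libraries (6 residual degrees of freedom), and Benjamini-Hochberg adjustment over all tested genes with a threshold of 0.05. Likeness used log2 CPM with a prior count of 2. Coordinates and exon lengths come from GENCODE M21 (mm10). All 10 genes matched a RefSeq promoter window of GRCm38.p6. Alternatives were RLE and upper quartile factors, DESeq2 1.42.0, limma-voom (limma 3.58.1), other filters, fits of only the pair of groups, a replicate block, and left-out libraries. All 10 genes were named whatever their values. Of each pathway list the genes past the threshold or, with none, those with the smallest p in each comparison with GFP were named. Trp53 and Nudt3 lie outside that rule and were named for their role. The genes, lists and settings were chosen with earlier results of these data known. Within each group, every pair of libraries differed by more than counting noise, with a chi-square of at least 29.5 per degree of freedom. The result of 1 marker list is not reported here.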

Additional observations from a re-analysis of the deposited data

How the results depend on the processing

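The count of genes called by edgeR in Olig3 over GFP (32) was 505 without Olig3 library 2 and 0 in 7 of the 9 fits that each left out 1 library, so the range was 0 to 505. It was 502 with DESeq2, 78 with limma-voom, 556 with no filter, 0 with only the 2 groups compared, 0 with the replicate block, 0 with Olig3 libraries 1 and 3 left out and 20 with the Malat1-rich libraries left out. For Olig2 over GFP (8) it was 90 with DESeq2, 176 with no filter, 23 with only the 2 groups compared, 41 with Olig3 libraries 1 and 3 left out, 5 with the Malat1-rich libraries left out, and 0 to 24 when 1 library was left out. For Olig3 over Olig2 (6) it was 82 with DESeq2, 1 with limma-voom, 140 with no filter, 2 with only the 2 groups compared, 0 with Olig3 libraries 1 and 3 left out, and 2 to 160 when 1 library was left out. The cause was not tested.

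The log2 change of Ip6k2 kept its sign in all 3 comparisons under all 19 alternatives. For Olig3 over GFP its adjusted p rose above 0.05 with only the 2 groups compared (0.168) and with the replicate block (0.0862). The 7 fits without 1 library and both sets of left-out libraries did the same. For Olig3 over Olig2 it fell below 0.05 with DESeq2 (1.71e-06), with no filter (0.00267) and without Olig3 library 2 (0.0412). Ip6k2 alone was called among the 10 genes in any setting: the other 8 tested genes were called in 0 of 450 alternative fits, and their log2 change changed sign in 41.

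With the Malat1-rich libraries left out, the Olig2 over GFP change was 0.05 for Ip6k1, 0.15 for Ppip5k2 and -0.05 for Ipmk, the Olig3 over GFP change of Ip6k1 was 0.01, and the Olig3 over Olig2 changes of Ip6k3 and Itpk1 were -0.07 and 0.13. With Olig3 libraries 1 and 3 left out, Ippk was at 0.90 over GFP and 0.51 over Olig2, and Ip6k3 and Itpk1 at -0.64 and 0.06 over Olig2. Itpkb in Olig2 over GFP was 0.02 with upper quartile factors, 0.79 with limma-voom and 1.34 with the replicate block. Ip6k3 in Olig3 over Olig2 was -1.54 with limma-voom and -1.54 with the replicate block. Leaving out 1 library gave, for Olig2 over GFP, -0.11 to 0.01 for Ip6k1, 0.99 to 7.72 for Ip6k3, -0.04 to 0.24 for Ppip5k1, -0.18 to 0.13 for Ppip5k2, -0.19 to 1.02 for Ippk, -0.15 to 0.49 for Ipmk, -0.54 to 0.09 for Itpk1 and -1.73 to 0.41 for Itpkb. For Olig3 over GFP it gave -0.66 to 0.27 for Ip6k1, -0.10 to 7.82 for Ip6k3, -0.32 to 0.95 for Ppip5k2, -6.30 to -0.06 for Ippk, -0.60 to 0.04 for Itpk1 and -8.27 to -1.32 for Itpkb. For Olig3 over Olig2 it gave -0.63 to 0.30 for Ip6k1, -1.67 to 0.68 for Ip6k3, -0.05 to 0.26 for Ppip5k1, -0.28 to 0.99 for Ppip5k2, -6.69 to -0.50 for Ippk, -0.22 to 0.15 for Itpk1 and -8.24 to -0.18 for Itpkb.

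For same-numbered libraries of different groups, the correlation of their deviations from the group means ran from -0.0634 to 0.113 over 9 pairs. The highest was that of Olig2 library 2 and Olig3 library 2, both Malat1-rich. Of the 9 libraries, 1 correlated best with its own number in both other groups. With 3 libraries per group, these values cannot show whether same-numbered libraries shared a batch. Beyond Ip6k2 the block changed no call among the 10 genes. With the replicate block the counts of calls were 10, 0 and 8 for Olig2 over GFP, Olig3 over GFP and Olig3 over Olig2. Ip6k3, Ippk, Itpka and Itpkb had libraries at 0 or 1 count, and the SE of the log2 change in Olig3 over GFP was 1.79 to 2.03 for the 3 of them that were tested.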
